A study of Mus musculus with 9 samples.

Results

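The genes described here are 35 genes of sterol and fatty acid metabolism, taken from 55487 gene identifiers in the deposited tables. They were chosen by name from knowledge of the pathways, with earlier results of these data known. They comprise 19 enzymes of cholesterol synthesis, 5 regulators of the SREBP system and 5 genes of fatty acid synthesis. The others are 3 genes of sterol handling inside the cell and 3 genes controlled by LXR. Every gene matched 1 identifier, and all 35 passed the filter on low counts. The genes were measured by RNA sequencing in naive CD4+ T cells, the helper T cells that have not yet met antigen, taken from the lymph nodes of C57BL6/J mice of WT genotype.

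There were 3 groups of 3 libraries each. IL-1b-treated cells were kept in culture for 20 h with recombinant IL-1b, an inflammatory cytokine, at 10 ng/mL. Cultured cells spent 20 h in culture without the cytokine. Fresh cells were taken directly after isolation. All came from WT animals, and no other agent is named for any group. The labels do not say whether replicates were separate animals or cultures, so the p-values measure only the spread between these libraries, which may be technical. The design sets cultured cells with IL-1b against cultured cells without it, and both against fresh cells.

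Cells make cholesterol from acetyl-CoA through mevalonate and squalene, and the genes of nearly every step are switched on by SREBP-2, the product of Srebf2. SCAP carries the SREBP precursors out of the endoplasmic reticulum when membrane sterol is low, and the INSIG proteins hold SCAP back when it is high. Fatty acid synthesis is driven mainly by SREBP-1 and by LXR, a receptor for oxidised sterols that also switches on the cholesterol exporters, and T cells draw on both pathways when they build new membrane.

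Library totals were 13518818 to 23056660 expected counts, so that 3 counts in a library equalled 0.130 to 0.222 CPM (counts scaled to the library total). Naive CD4+ T cell markers were present in every library, with a sum over 8 genes of 2948 to 2987 TPM (transcripts scaled by length to a fixed library total) in IL-1b-treated, 3484 to 3496 in cultured and 4225 to 4340 in fresh libraries. The 10 B cell markers summed to 4.89 to 6.86 TPM in IL-1b-treated, 4.44 to 5.95 in cultured and 55.1 to 70.7 in fresh libraries. The sum over 7 neutrophil markers was 0 to 1.46 TPM in IL-1b-treated, 0.31 to 0.81 in cultured and 17.1 to 42.5 in fresh libraries. The median length of the gene behind a count was 1781 to 1794 bases in IL-1b-treated, 2100 to 2136 in cultured and 2359 to 2380 in fresh libraries, so levels and changes can depend on how length is treated. IL-1b-treated replicate 3 lay apart on the third principal component, at 39.6 against -14.0 and -19.8 for the other IL-1b-treated libraries, and calls that changed without it are given with each gene.

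Levels of the 35 genes spanned 0.0767 to 128 TPM as group means in IL-1b-treated cells, 0.0867 to 151 TPM in cultured cells and 2.64 to 162 TPM in fresh cells. In the plot of levels by library, most enzymes of cholesterol synthesis lay to the right of the fresh libraries in cultured cells. In IL-1b-treated cells Acat2, Idi1, Fdft1, Sqle, Cyp51, Msmo1, Ebp and Sc5d did so. Mvk, Pmvk, Tm7sf2, Lbr, Hsd17b7 and Dhcr7 lay to the left there, and the other enzymes overlapped. Scd1, Scd2 and Abca1 lay far to the left of the fresh libraries in both cultured groups.

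**Figure D1:**
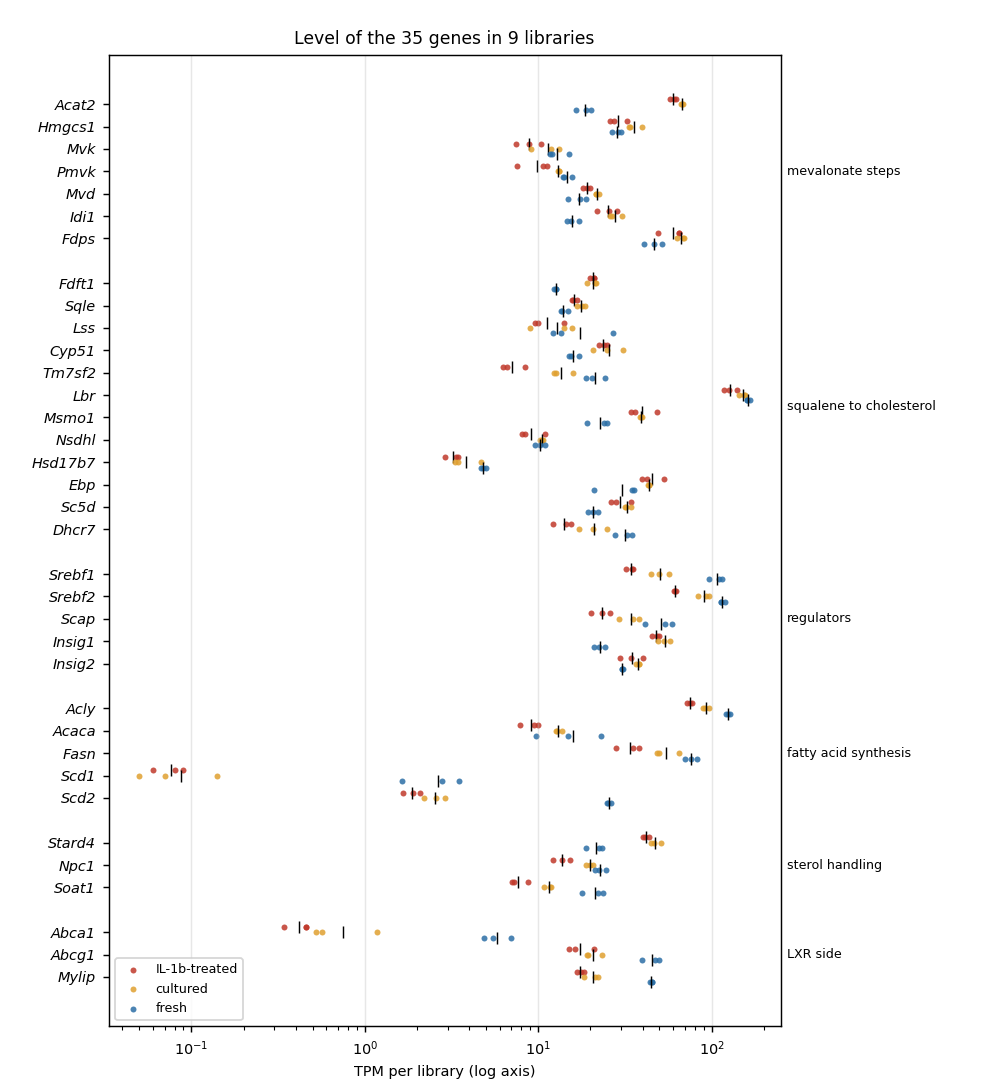
TPM of each of the 35 genes (rows, grouped by role) in each of the 9 libraries on a log axis, with points for IL-1b-treated, cultured and fresh libraries and a tick at each group mean. Scd2 averages 1.88 TPM in IL-1b-treated, 2.55 TPM in cultured and 25.5 TPM in fresh cells, while Acat2 averages 60.2 TPM in IL-1b-treated, 67.4 TPM in cultured and 18.6 TPM in fresh cells.

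A level is in TPM, which is scaled by gene length. A change is a log2 fold change with its standard error, from edgeR's quasi-likelihood test on counts with TMM scaling, and a gene is said to have risen or fallen where its Benjamini-Hochberg adjusted p over all 13043 genes tested was under 0.05. Such a change is relative to the bulk of genes, because TMM scaling sets their median change near 0.

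In cultured against fresh cells 28 of the 35 genes changed, 15 rising and 13 falling. Over all genes tested, 58.2% changed, 29.4% rising and 28.9% falling. In IL-1b-treated against cultured cells 6 rose and 6 fell, against a background of 28.9% of all genes changed, 15.6% rising and 13.3% falling, so this share was near the background. In IL-1b-treated against fresh cells 16 rose and 15 fell, against a background of 65.5% changed, 32.9% rising and 32.6% falling. This last comparison shares its libraries with the other two, and its values are only set beside theirs.

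**Figure D2:**
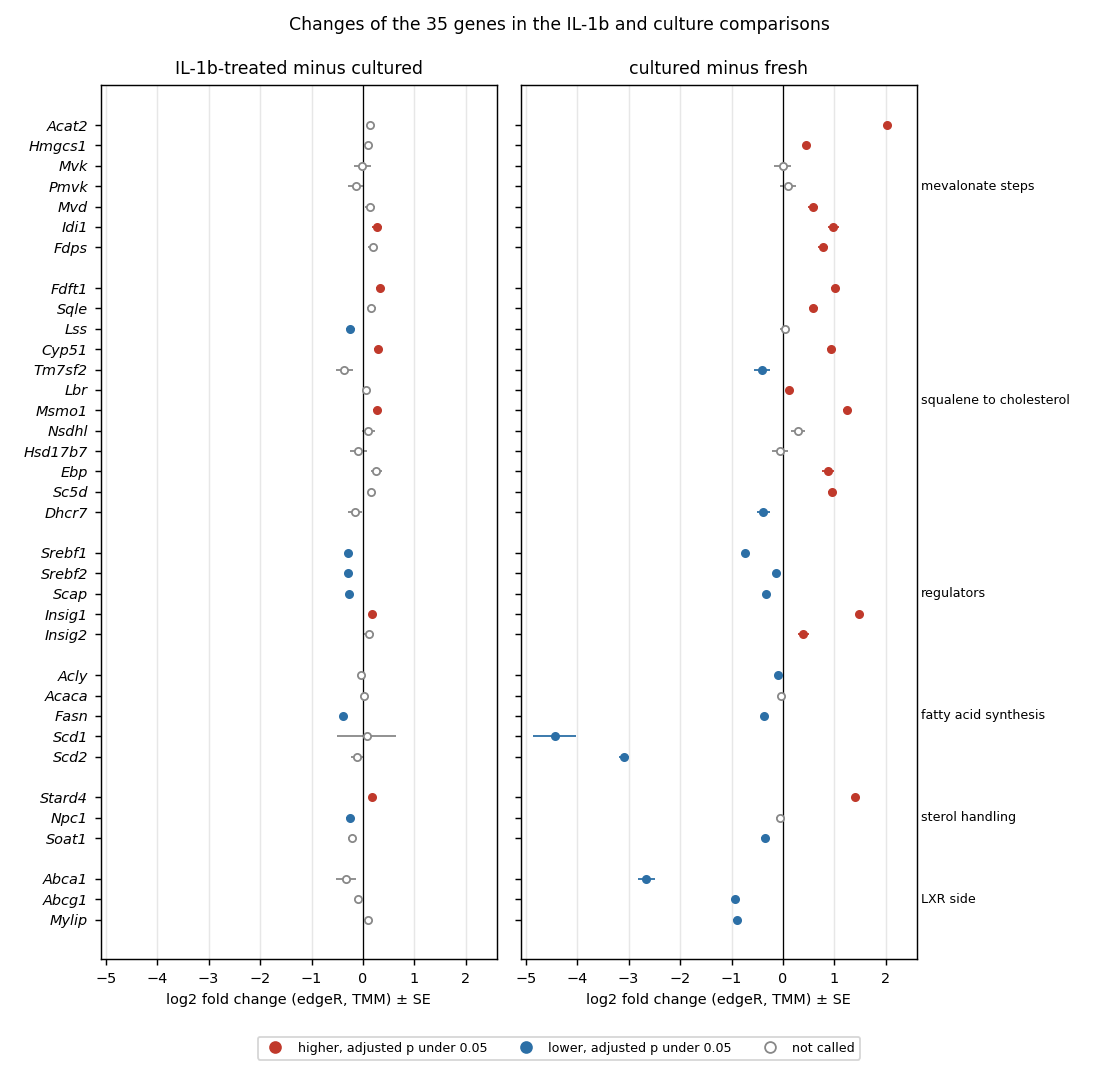
Log2 fold change with its standard error for each of the 35 genes, IL-1b-treated minus cultured cells at left and cultured minus fresh cells at right, coloured by the edgeR call. At right 15 genes rose, led by Acat2 at 2.02, and 13 fell, among them Scd2 at -3.08. Scd1, at -4.44, could pass the filter on low counts only through its fresh libraries, so its direction was fixed beforehand. At left 6 rose and 6 fell, all by less than 0.40.

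Promoters are shown for the genes with the smallest adjusted p in cultured against fresh cells that had an entry and a motif match, and for Abca1 as the gene of that kind on the LXR side. Hmgcs1 was picked after the search because it alone of the genes searched held the sterol regulatory element core in the spelling used. Each line gives the 250 bases before the transcription start, 5′ to 3′ on the gene's strand, from RefSeq on GRCm38.p6, and capitals mark motif matches on either strand.
Acat2: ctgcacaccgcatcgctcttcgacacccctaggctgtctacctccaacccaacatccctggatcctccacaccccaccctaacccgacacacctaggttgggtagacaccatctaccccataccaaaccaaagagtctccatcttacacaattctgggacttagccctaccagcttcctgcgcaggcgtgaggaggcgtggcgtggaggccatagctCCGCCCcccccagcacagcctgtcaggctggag
Insig1: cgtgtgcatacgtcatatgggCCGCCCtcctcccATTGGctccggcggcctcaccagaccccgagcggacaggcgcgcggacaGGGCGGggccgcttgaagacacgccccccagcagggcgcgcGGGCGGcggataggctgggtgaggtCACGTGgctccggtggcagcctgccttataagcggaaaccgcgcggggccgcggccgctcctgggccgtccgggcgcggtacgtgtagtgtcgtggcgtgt
Msmo1: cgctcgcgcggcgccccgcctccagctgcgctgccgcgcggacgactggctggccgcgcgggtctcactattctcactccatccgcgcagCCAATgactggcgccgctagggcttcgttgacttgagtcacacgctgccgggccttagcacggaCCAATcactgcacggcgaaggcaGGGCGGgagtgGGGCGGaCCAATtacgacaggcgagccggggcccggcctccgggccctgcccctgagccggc
Hmgcs1: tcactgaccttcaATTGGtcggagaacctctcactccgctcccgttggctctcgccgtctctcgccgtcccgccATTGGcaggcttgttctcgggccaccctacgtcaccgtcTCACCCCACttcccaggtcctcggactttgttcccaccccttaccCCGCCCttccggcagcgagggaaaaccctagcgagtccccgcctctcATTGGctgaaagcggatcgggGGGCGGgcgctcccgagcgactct
Abca1: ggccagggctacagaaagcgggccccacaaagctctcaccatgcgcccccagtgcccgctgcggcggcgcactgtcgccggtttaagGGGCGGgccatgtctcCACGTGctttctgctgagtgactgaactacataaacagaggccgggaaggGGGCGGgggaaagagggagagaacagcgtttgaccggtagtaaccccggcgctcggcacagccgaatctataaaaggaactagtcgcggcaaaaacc
The windows are chr17:12960726-12960975 on the minus strand for Acat2, chr5:28071162-28071411 on the plus strand for Insig1, chr8:64733579-64733828 on the minus strand for Msmo1, chr13:119690101-119690350 on the plus strand for Hmgcs1 and chr4:53159896-53160145 on the minus strand for Abca1.

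The motifs searched were the sterol regulatory element core (TCAC, any base, then CCAC), the NF-Y box CCAAT, the E-box CACGTG, the GC box GGGCGG and the LXR element, a direct repeat of AGGTCA with 4 free bases between. Windows of 300 bases, 50 of them after the start, were searched on both strands, and no matches of different motifs overlapped. Of the 35 genes 27 had an entry, with 35 windows among them; Fdps, Fdft1, Sqle, Scd1, Scd2, Stard4, Npc1 and Abcg1 were not searched. CCAAT stood in 24 of the 35 windows, against 37.4% of all 32851 RefSeq windows and 37.9% of windows of genes tested here. By gene, with a match in any window of the gene, it was found in 15 of the 16 cholesterol synthesis genes searched, Acat2 being the one without it. Some genes had more than 1 window, so this count does not compare directly with the shares per window. The GC box stood in 28 of the 35 windows, against 35.7% of all windows and 61.7% of those of tested genes. The E-box stood in 7 of the 35 windows, among them those of Insig1 and Abca1, against 7.15% of all windows and 10.2% of those of tested genes. The windows of Scap overlap, and the same E-box was counted in both, as was a GC box. By gene, 6 of the 27 held an E-box. Hmgcs1 had the only sterol element core of the spelling searched, with its first base at position -137 from the start. Such a core stood in 1.24% of all windows and 1.12% of those of tested genes. Other spellings of the element were not searched. No LXR element of this spelling was found in these windows, and 0.0152% of all windows held one.

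**Figure D3:**
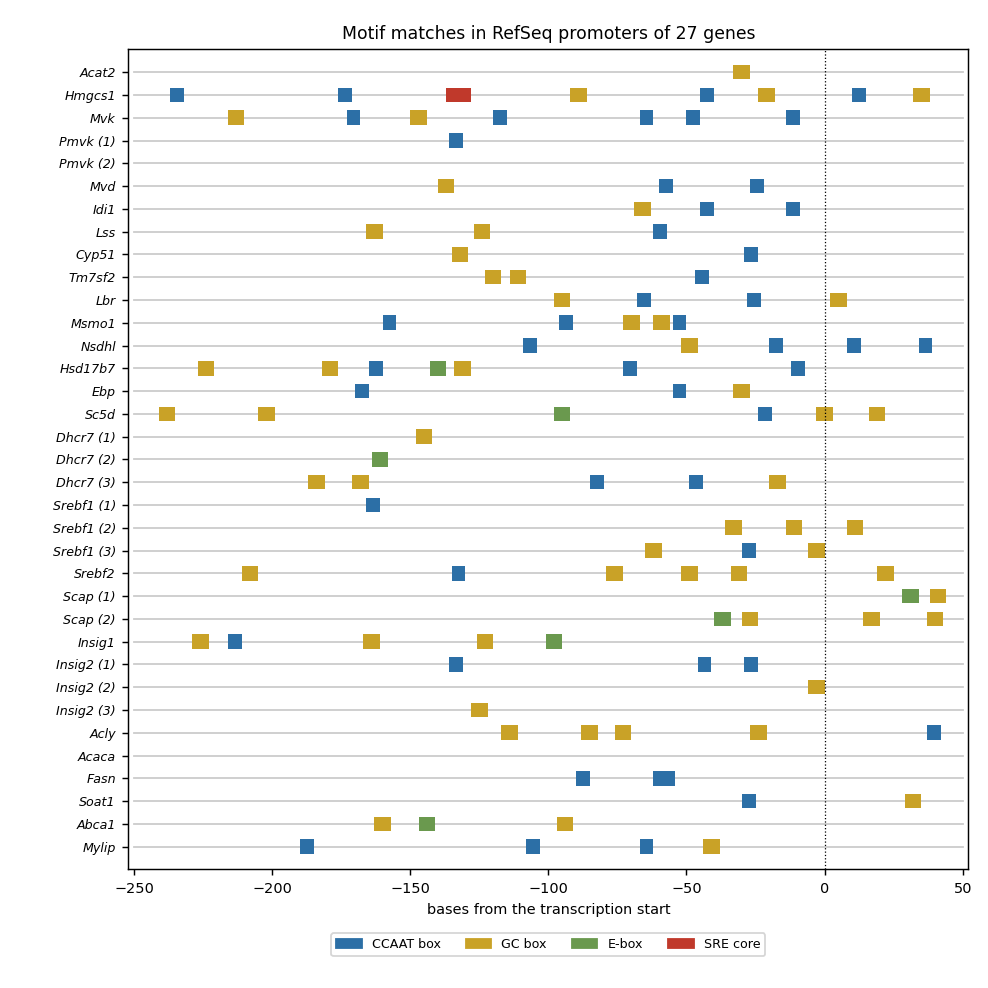
Positions of motif matches, in bases from the transcription start, in the RefSeq promoter windows of 27 of the genes, coloured by motif. Msmo1 has 3 CCAAT boxes and 2 GC boxes, and Hmgcs1 alone has a sterol regulatory element core of the spelling searched, at -137.

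Most cholesterol synthesis enzymes were higher in cultured than in fresh cells. Of 19 enzymes 12 rose (63.2%, against 29.4% of all genes), 2 fell and 5 did not pass the test, and their median log2 fold change was 0.58 against 0.00 over all genes tested. Acat2 was the most changed, at 4.07 times its fresh level on the count scale. Their summed level was 559.9 ± 11.5 TPM in IL-1b-treated, 635.6 ± 6.63 TPM in cultured and 518.2 ± 20.5 TPM in fresh cells (SD, n = 3 each). A large share of that sum was Lbr, and without it the sum over 18 enzymes was 431.4 ± 11.1 TPM in IL-1b-treated, 484.6 ± 13.4 TPM in cultured and 355.8 ± 24.2 TPM in fresh cells. Neither sum overlapped between groups, with cultured cells highest and fresh cells lowest. With IL-1b against culture alone, however, 45% of all genes lay below without overlap in TPM, and the median over all genes shifted by -0.28. On counts 4 of the 19 enzymes rose and 1 fell there, where 15.6% and 13.3% of all genes did. Their median log2 fold change was 0.13 against -0.01 over all genes tested. In bulk RNA more transcripts per cell and more cells that express a gene cannot be told apart.

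The mevalonate steps lead from acetyl-CoA to the isoprenoid farnesyl diphosphate, and 5 of the 7 genes rose in cultured against fresh cells while none fell. Of all genes 29.4% rose and 28.9% fell. Acat2 encodes the cytosolic thiolase that joins a pair of acetyl-CoA units. It lies at chr17:12942890-12960747 on mm10 (identifier ENSMUSG00000023832). Acat2 had 57.4, 62.4 and 60.8 TPM in IL-1b-treated, 66.3, 67.4 and 68.5 TPM in cultured and 18.9, 20.2 and 16.6 TPM in fresh libraries. Every library of both cultured groups was far above the highest fresh library, and the IL-1b-treated libraries lay below the cultured ones. Acat2 rose in cultured against fresh cells (log2 fold change 2.02 ± 0.06, edgeR adjusted p 1.96e-17) and in IL-1b-treated against fresh cells (2.17 ± 0.06, edgeR adjusted p 2.57e-18). Between IL-1b-treated and cultured cells it did not pass the test (0.14 ± 0.06, edgeR adjusted p 0.0673), although it was called without fresh replicate 3 (adjusted p 0.0444). Acat3 is 97.7% identical to it over 1477 bases and had 190 counts over all 9 libraries.

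Idi1 encodes the isomerase that makes the building block from which longer isoprenoids grow. Its levels were 28.5, 25.5 and 22 TPM in IL-1b-treated, 25.9, 30.6 and 26.5 TPM in cultured and 14.6, 17.2 and 15.4 TPM in fresh libraries. All 6 cultured libraries lay above all 3 fresh ones, and the groups with and without IL-1b overlapped. Idi1 rose in cultured against fresh cells (0.98 ± 0.11, edgeR adjusted p 3.67e-08). Between IL-1b-treated and cultured cells the adjusted p was 0.0498 with a log2 fold change of 0.27 ± 0.10, and it exceeded 0.05 when fresh replicate 3, replicate 1 or 3 of the cultured or replicate 1 or 2 of the IL-1b-treated cells was left out, reaching 0.271. The call was also lost with RLE, upper-quartile and library-size scaling, with DESeq2, and once a trend of counts with GC content and length of the genes was removed. The change was -0.13 on the log2(TPM + 0.5) scale (limma adjusted p 0.411). Reads of Idi1 could be shared with the pseudogene Gm13502, which matches 684 of its bases without a mismatch.

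Hmgcs1 encodes the synthase that makes HMG-CoA, the substrate for mevalonate, and its promoter carries the sterol element core printed above. It averaged 28.7 ± 3.43 TPM in IL-1b-treated, 35.5 ± 3.43 TPM in cultured and 28.6 ± 1.61 TPM in fresh cells (SD, n = 3 each). Mvd, which makes isopentenyl diphosphate, averaged 19.1 ± 0.87 TPM in IL-1b-treated, 21.8 ± 0.458 TPM in cultured and 17.1 ± 2 TPM in fresh cells. Fdps, which makes farnesyl diphosphate, averaged 59.8 ± 9.03 TPM in IL-1b-treated, 67 ± 2.95 TPM in cultured and 46.5 ± 5.5 TPM in fresh cells. All 3 rose in cultured against fresh cells, with log2 fold changes of 0.46 ± 0.07 for Hmgcs1, 0.58 ± 0.10 for Mvd and 0.78 ± 0.09 for Fdps, and none passed the test with IL-1b against culture alone, where Fdps was called only without IL-1b-treated replicate 3 (adjusted p 0.00563). Of the exons of Fdps 26.7% lie in the same-strand gene Gm43738, and 12.1% of those of Hmgcs1 lie opposite Gm48342. The kinases Mvk and Pmvk, which phosphorylate mevalonate in turn, did not pass the test in cultured against fresh cells. Their log2 fold changes were -0.01 ± 0.16 for Mvk and 0.10 ± 0.15 for Pmvk. Mvk averaged 8.87 ± 1.47 TPM in IL-1b-treated, 11.3 ± 2.08 TPM in cultured and 12.9 ± 1.87 TPM in fresh cells, and Pmvk 9.82 ± 2 TPM in IL-1b-treated, 13.1 ± 0.146 TPM in cultured and 14.6 ± 1 TPM in fresh cells.

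From squalene to cholesterol, 7 of 12 genes rose in cultured against fresh cells, 2 fell and 3 did not pass the test, where 29.4% of all genes rose and 28.9% fell. Fdft1 encodes squalene synthase, the first step that is used for sterols alone. Its levels were 21.1, 19.9 and 21 TPM in IL-1b-treated, 21.5, 19.2 and 21.2 TPM in cultured and 12.7, 12.7 and 12.3 TPM in fresh libraries. Fresh libraries were lowest without overlap, and those with and without IL-1b overlapped. Fdft1 rose in cultured against fresh cells (1.02 ± 0.08, edgeR adjusted p 2.01e-10) and again with IL-1b against culture alone (0.32 ± 0.08, edgeR adjusted p 0.00225), and the second rise came to 0.00 on the log2(TPM + 0.5) scale. The gene shares 18.3% of its exons with Ctsb on the opposite strand, so part of its count may be from Ctsb.

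Msmo1 encodes the oxidase that takes methyl groups off carbon 4 of the sterol ring. Msmo1 had 36.1, 34.2 and 48.6 TPM in IL-1b-treated, 38.5, 39.6 and 39.4 TPM in cultured and 19.1, 24 and 24.9 TPM in fresh libraries. IL-1b-treated replicate 3 was the highest of all, and fresh libraries were all lower than the other 6. Msmo1 rose in cultured against fresh cells (1.24 ± 0.08, edgeR adjusted p 6.00e-12). It rose with IL-1b against culture alone (0.26 ± 0.07, edgeR adjusted p 0.00971), a call lost when replicate 1 of the cultured or replicate 3 of the IL-1b-treated cells was left out (highest adjusted p 0.0785), and its direction turned to -0.00091 on the log2(TPM + 0.5) scale. A short stretch of Msmo1 is a repeat also present in other genes.

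Cyp51 encodes the demethylase acting on lanosterol. Cyp51 had 24, 24.8 and 22.6 TPM in IL-1b-treated, 20.8, 25.1 and 30.7 TPM in cultured and 15.6, 15 and 17.2 TPM in fresh libraries. Both cultured groups exceeded every fresh library and overlapped each other. It rose in cultured against fresh cells (0.92 ± 0.07, edgeR adjusted p 3.26e-10). It rose on the count scale with IL-1b against culture alone (0.29 ± 0.07, edgeR adjusted p 0.00368), and the direction turned to -0.08 on the log2(TPM + 0.5) scale.

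Sc5d encodes the desaturase of a late ring step, and Ebp the isomerase that moves a ring double bond. Sc5d had 34.3, 28.2 and 26.3 TPM in IL-1b-treated, 32, 34.2 and 31.5 TPM in cultured and 19.4, 20.7 and 22 TPM in fresh libraries. Ebp had 42.4, 53.2 and 39.9 TPM in IL-1b-treated, 43, 43.6 and 43.3 TPM in cultured and 20.9, 35.7 and 34.8 TPM in fresh libraries. For both genes every fresh library was below every cultured and IL-1b-treated one, and fresh replicate 1 was the lowest. Sc5d rose in cultured against fresh cells (0.95 ± 0.07, edgeR adjusted p 4.43e-11), as did Ebp (0.88 ± 0.11, edgeR adjusted p 6.95e-07). Neither passed the test with IL-1b against culture alone, at 0.15 ± 0.07 (adjusted p 0.0866) for Sc5d and 0.26 ± 0.11 (adjusted p 0.0813) for Ebp, which was called without fresh replicate 1 or without replicate 1 of the IL-1b-treated cells (adjusted p down to 0.0397).

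Sqle, the squalene epoxidase, rose in cultured against fresh cells by 0.59 ± 0.08, with 16.1 ± 0.553 TPM in IL-1b-treated, 17.8 ± 0.962 TPM in cultured and 14 ± 0.708 TPM in fresh cells. Lbr, a sterol reductase that is also a receptor for lamin B in the nuclear envelope, was the highest of the 35 genes in each group, with 128 ± 10.9 TPM in IL-1b-treated, 151 ± 6.87 TPM in cultured and 162 ± 3.67 TPM in fresh cells. Its rise of 0.12 ± 0.04 in cultured against fresh cells (adjusted p 0.00956) was lost without fresh replicate 2 (adjusted p 0.0813), and it turned to -0.10 on the log2(TPM + 0.5) scale. Tm7sf2, the other reductase of that step, fell in cultured against fresh cells (-0.41 ± 0.15, edgeR adjusted p 0.0253), a call lost without fresh replicate 1 or 2 or cultured replicate 1 (adjusted p up to 0.136). Its levels averaged 7.06 ± 1.12 TPM in IL-1b-treated, 13.6 ± 1.95 TPM in cultured and 21.2 ± 2.84 TPM in fresh cells, and 12.1% of its exons lie in Vps51 on the same strand. Dhcr7, the reductase of the last step in one route to cholesterol, also fell in cultured against fresh cells (-0.38 ± 0.12, edgeR adjusted p 0.01), with 14.1 ± 1.72 TPM in IL-1b-treated, 21 ± 3.89 TPM in cultured and 31.6 ± 3.53 TPM in fresh cells. With the GC content and length trend removed it was at -0.27 and not called (edgeR adjusted p 0.0543). A short stretch of Dhcr7 is also present in other genes. Among them is D10Wsu102e, 97.3% identical over 221 bases, which had 10719 counts over all libraries.

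Lss, Nsdhl and Hsd17b7 did not pass the test in cultured against fresh cells. Lss encodes the cyclase that folds squalene epoxide into lanosterol. It averaged 11.2 ± 2.52 TPM in IL-1b-treated, 12.9 ± 3.52 TPM in cultured and 17.5 ± 8.09 TPM in fresh cells, with fresh replicate 2 at 26.8 TPM and the other fresh libraries at 12.1 and 13.6. Lss fell with IL-1b against culture alone (-0.25 ± 0.09, edgeR adjusted p 0.0441), a call lost when any one of 6 of the 9 libraries was left out (adjusted p up to 0.246). Those 6 were fresh replicates 2 and 3, cultured replicates 2 and 3 and IL-1b-treated replicates 1 and 3. Nsdhl and Hsd17b7, both of the step that removes the carbon 4 methyl groups, had log2 fold changes of 0.29 ± 0.13 and -0.05 ± 0.16 in cultured against fresh cells. Nsdhl was called higher there when any 1 IL-1b-treated library was left out (adjusted p down to 0.0284), since all 9 libraries share 1 estimate of spread. It averaged 9.12 ± 1.54 TPM in IL-1b-treated, 10.5 ± 0.224 TPM in cultured and 10.3 ± 0.661 TPM in fresh cells. Hsd17b7 averaged 3.22 ± 0.291 TPM in IL-1b-treated, 3.82 ± 0.761 TPM in cultured and 4.81 ± 0.151 TPM in fresh cells.

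The 5 regulators split. In cultured against fresh cells both INSIG genes rose, while both SREBP genes and Scap fell. Insig1 is itself a target of SREBP and lies at chr5:28071363-28078662 (identifier ENSMUSG00000045294). Insig1 had 45.6, 48.2 and 49.5 TPM in IL-1b-treated, 53.5, 57.9 and 49.4 TPM in cultured and 24.3, 21 and 22.6 TPM in fresh libraries. Every library of both cultured groups lay well above the fresh libraries, and the 2 cultured groups overlapped. Insig1 rose in cultured against fresh cells (1.47 ± 0.06, edgeR adjusted p 2.40e-15) and in IL-1b-treated against fresh cells (1.65 ± 0.06, edgeR adjusted p 1.74e-16). Its rise with IL-1b against culture alone, 0.17 ± 0.06 (adjusted p 0.0267), turned to -0.16 on the log2(TPM + 0.5) scale. That call was lost when replicate 1 or 3 of the cultured or replicate 2 or 3 of the IL-1b-treated cells was left out (highest adjusted p 0.121).

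Insig2 is the INSIG gene that SREBP does not drive. Insig2 had 29.5, 40.4 and 34.3 TPM in IL-1b-treated, 38.2, 38 and 36.5 TPM in cultured and 30.5, 30.7 and 30.3 TPM in fresh libraries. Cultured libraries exceeded all fresh ones, whereas IL-1b-treated libraries spanned both. Insig2 rose in cultured against fresh cells (0.40 ± 0.11, edgeR adjusted p 0.00347), and the rise did not pass the test once a trend of GC content and length was removed. The ratio of Insig1 to Insig2 TPM within a library was 1.40 ± 0.18 with IL-1b, 1.43 ± 0.0875 in culture without it and 0.742 ± 0.0568 in fresh cells (SD, n = 3 each). The 3 fresh ratios lay below all the others.

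Srebf1 encodes SREBP-1 and lies at chr11:60199089-60222581 (identifier ENSMUSG00000020538). Srebf1 had 32.2, 35.5 and 34.7 TPM in IL-1b-treated, 57.1, 49.5 and 44.8 TPM in cultured and 109.9, 97 and 115 TPM in fresh libraries. The 3 groups did not overlap, with IL-1b-treated cells lowest and fresh cells highest. Many genes shifted this way in TPM. With IL-1b against culture alone 45% of all genes lay below without overlap, and in cultured against fresh cells 43.1% did. Srebf1 fell in cultured against fresh cells (-0.74 ± 0.05, edgeR adjusted p 2.83e-11) and fell further with IL-1b against culture alone (-0.30 ± 0.05, edgeR adjusted p 2.42e-04). Over both, IL-1b-treated cells were lower than fresh cells by a factor of 2.05 on the count scale.

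Srebf2 had 61.1, 62.3 and 61.8 TPM in IL-1b-treated, 92.5, 83.3 and 96.1 TPM in cultured and 113, 113 and 119 TPM in fresh libraries. These groups too did not overlap and had the same order. Srebf2 fell in cultured against fresh cells (-0.14 ± 0.03, edgeR adjusted p 0.00102), but rose by 0.27 when the GC content and length trend was removed. Srebf2 fell with IL-1b against culture alone (-0.28 ± 0.04, edgeR adjusted p 1.76e-06), and this fall was no longer called with the trend removed. Scap had 20.2, 23.4 and 26.1 TPM in IL-1b-treated, 29.3, 35.2 and 38 TPM in cultured and 53.7, 58.9 and 41.5 TPM in fresh libraries. Again the order was IL-1b-treated, cultured, fresh from low to high, without overlap, a shift that many genes had in TPM (shares given with Srebf1). Scap fell in cultured against fresh cells (-0.33 ± 0.06, edgeR adjusted p 8.76e-05) and with IL-1b against culture alone (-0.27 ± 0.06, edgeR adjusted p 0.00251). With the trend removed, its change in cultured against fresh cells was 0.01, and neither call remained. The exons of Scap overlap 5830462I19Rik on the opposite strand over 13.2% of their bases. The ratio of Srebf2 to Srebf1 TPM was 1.81 ± 0.0748 with IL-1b, 1.82 ± 0.287 in culture without it and 1.08 ± 0.078 in fresh cells (SD, n = 3 each).

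**Figure D4:**
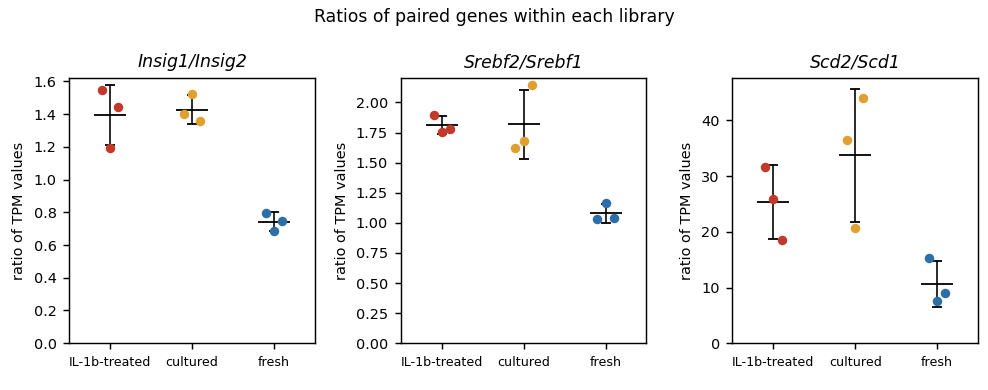
Ratio of TPM values of 3 gene pairs within each library (points), with the mean and SD of IL-1b-treated, cultured and fresh libraries from left to right. Insig1 to Insig2 averages 1.40 with IL-1b, 1.43 in culture without it and 0.742 in fresh cells, and Srebf2 to Srebf1 averages 1.81 with IL-1b, 1.82 without it and 1.08 in fresh cells.

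None of the 5 fatty acid genes rose in cultured against fresh cells, and 4 fell, where 29.4% and 28.9% of all genes did. With the GC content and length trend removed 1 of the 5 was called higher and 2 lower. Their median was then 0.05 against 0.01 over all genes tested. Scd2 and Scd1 are stearoyl-CoA desaturases, which put a double bond into saturated fatty acids. Scd2 lies at chr19:44293674-44306864 (identifier ENSMUSG00000025203). Scd2 had 1.9, 2.07 and 1.67 TPM in IL-1b-treated, 2.56, 2.89 and 2.2 TPM in cultured and 24.9, 26.2 and 25.3 TPM in fresh libraries. All fresh libraries lay far above all others, and the IL-1b-treated libraries lay below the cultured ones. Scd2 fell in cultured against fresh cells (-3.08 ± 0.10, edgeR adjusted p 1.80e-17), to a level 8.48-fold lower on the count scale. It did not pass the test between IL-1b-treated and cultured cells (-0.12 ± 0.12, edgeR adjusted p 0.496).

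Scd1 had 0.06, 0.08 and 0.09 TPM in IL-1b-treated, 0.07, 0.14 and 0.05 TPM in cultured and 1.63, 3.48 and 2.8 TPM in fresh libraries. It was close to the detection floor in both cultured groups, with 15 counts over the 3 IL-1b-treated, 15 over the 3 cultured and 368 over the 3 fresh libraries. Scd1 was lower in cultured than in fresh cells (-4.44 ± 0.42), and every fresh library lay above every other. With so few counts after culture, it could pass the filter on low counts only through its fresh libraries. The direction of its change was thus fixed beforehand. Its fall is no test, although it is included in the counts of falling genes. The ratio of Scd2 to Scd1 TPM was 25.4 ± 6.57 with IL-1b, 33.7 ± 11.9 in culture without it and 10.6 ± 4.12 in fresh cells (SD, n = 3 each), and the first 2 rest on few Scd1 counts. Transcripts of Scd1 and Scd2 are 95.5% identical over 623 bases, so reads from there may have been split between them.

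Fasn encodes fatty acid synthase. Fasn had 35, 28 and 37.9 TPM in IL-1b-treated, 65, 48.8 and 50.01 TPM in cultured and 75.7, 70.6 and 83 TPM in fresh libraries. The groups were ordered IL-1b-treated, cultured and fresh from low to high, with no overlap, a shift that many genes had in TPM (shares given with Srebf1). Fasn fell in cultured against fresh cells (-0.37 ± 0.05, edgeR adjusted p 2.66e-06) and with IL-1b against culture alone (-0.39 ± 0.06, edgeR adjusted p 1.13e-05). With the GC content and length trend removed the first came to 0.07 and was not called. The fall with IL-1b just missed the threshold in that fit (edgeR adjusted p 0.0513), and it was called when a replicate block was added.

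Acly, which supplies cytosolic acetyl-CoA, fell in cultured against fresh cells (-0.09 ± 0.03, edgeR adjusted p 0.0281). That call was lost without fresh replicate 1 or 3 or cultured replicate 1 or 3 (adjusted p up to 0.123) and turned to a rise of 0.12 with the trend removed. Acly averaged 74.9 ± 2.22 TPM in IL-1b-treated, 92.4 ± 4.12 TPM in cultured and 125 ± 3.33 TPM in fresh cells. Acaca, which makes malonyl-CoA, did not pass the test in any of the 3 comparisons, with 9.13 ± 1.12 TPM in IL-1b-treated, 13.1 ± 0.57 TPM in cultured and 15.8 ± 6.68 TPM in fresh cells. Its fresh libraries ranged from 9.68 to 22.9 TPM. Acaca is 99.2% identical to Gm5182 over 6118 bases, which had 113 counts over all libraries.

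Of the genes that handle sterol inside the cell, Stard4 rose, Soat1 fell and Npc1 did not pass the test in cultured against fresh cells. Stard4 encodes a soluble protein that carries cholesterol between membranes and is an SREBP target. Stard4 had 43.4, 40.3 and 41.5 TPM in IL-1b-treated, 46.8, 51 and 44.5 TPM in cultured and 18.9, 23.4 and 22.3 TPM in fresh libraries. Both cultured groups lay well above every fresh library, the one with IL-1b below the one without. Stard4 rose in cultured against fresh cells (1.40 ± 0.06, edgeR adjusted p 1.62e-15). The change with IL-1b against culture alone was 0.17 ± 0.05 on the count scale (adjusted p 0.0161) but -0.18 on the log2(TPM + 0.5) scale. The call was lost when replicate 1 of either group was left out (highest adjusted p 0.0974).

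Soat1 encodes the enzyme that esterifies cholesterol for storage. Soat1 had 7.22, 8.76 and 7.06 TPM in IL-1b-treated, 11.9, 11.8 and 10.8 TPM in cultured and 23.7, 22 and 17.8 TPM in fresh libraries. Fresh libraries were highest and IL-1b-treated libraries lowest, without overlap, a shift that many genes had in TPM (shares given with Srebf1). Soat1 fell in cultured against fresh cells (-0.35 ± 0.08, edgeR adjusted p 5.23e-04), and with IL-1b against culture alone it missed the threshold (-0.21 ± 0.08, edgeR adjusted p 0.059). It was called lower without IL-1b-treated replicate 3 (adjusted p 0.0486), and with RLE, upper-quartile or library-size scaling, DESeq2 and limma on TPM under 3 pseudocounts. Npc1, which exports cholesterol from lysosomes, had 15.3, 13.7 and 12.2 TPM in IL-1b-treated, 20.7, 19 and 19.9 TPM in cultured and 22.4, 24.6 and 21.3 TPM in fresh libraries. IL-1b-treated libraries lay below all others. Npc1 fell with IL-1b against culture alone (-0.26 ± 0.07, edgeR adjusted p 0.00939), a call lost without IL-1b-treated replicate 3 (adjusted p 0.0788). It did not pass the test in cultured against fresh cells (-0.07 ± 0.07, edgeR adjusted p 0.436).

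All 3 genes of the LXR side fell in cultured against fresh cells, where 28.9% of all genes fell. None passed the test with IL-1b against culture alone, where most genes did not pass it either and 28.9% of all genes changed. Abca1 encodes an exporter of cholesterol to apolipoproteins and lies at chr4:53030787-53159895 (identifier ENSMUSG00000015243). Abca1 had 0.46, 0.46 and 0.34 TPM in IL-1b-treated, 0.52, 0.57 and 1.17 TPM in cultured and 4.9, 5.48 and 6.95 TPM in fresh libraries. All fresh libraries lay far above all others, and cultured replicate 3 was the highest of the rest. Abca1 fell in cultured against fresh cells (-2.65 ± 0.16, edgeR adjusted p 1.71e-12), a 6.3-fold lower count-scale level. Between IL-1b-treated and cultured cells it did not pass the test (-0.33 ± 0.19, edgeR adjusted p 0.221), and was called lower only without IL-1b-treated replicate 2 (adjusted p 0.0446).

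Abcg1 encodes an exporter of cholesterol to lipoprotein particles. Abcg1 had 15.1, 16.4 and 20.9 TPM in IL-1b-treated, 19.5, 19.1 and 23.2 TPM in cultured and 49.97, 47.1 and 39.7 TPM in fresh libraries. Mylip encodes the ubiquitin ligase that degrades lipoprotein receptors when LXR is active. Mylip had 16.8, 18.3 and 17.6 TPM in IL-1b-treated, 22.2, 18.3 and 21.3 TPM in cultured and 45.3, 44.4 and 45.2 TPM in fresh libraries. For both genes the fresh libraries were highest. The groups with and without IL-1b overlapped for Abcg1, and for Mylip the highest IL-1b-treated library, at 18.28 TPM, was just below the lowest cultured one, at 18.29 TPM. Abcg1 fell in cultured against fresh cells (-0.93 ± 0.06, edgeR adjusted p 5.91e-12), and so did Mylip (-0.90 ± 0.07, edgeR adjusted p 1.45e-10).

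Markers of other cells moved with these falls. In cultured against fresh cells all 10 B cell markers, all 4 neutrophil markers tested and 7 of 9 myeloid markers tested also fell. Of all genes tested 28.9% fell. Several of these markers were almost absent after culture, such as Cxcr2 (244 fresh counts against 1) and Lyz2 (480 against 4). Markers this low after culture could pass the filter on low counts only through their fresh libraries. The direction of their change was thus fixed beforehand, and their falls are no test. The myeloid marker Lyz2 averaged 0.0867 TPM in IL-1b-treated, 0.1 TPM in cultured and 12.5 TPM in fresh cells. The sum over 10 myeloid markers was 91.95 to 101 TPM in IL-1b-treated, 83.8 to 89.8 TPM in cultured and 75.3 to 88.5 TPM in fresh libraries. Most of it was Cst3, which rose in cultured against fresh cells (0.83 ± 0.08, edgeR adjusted p 1.43e-08). Fcgr3 did not pass the test there (0.24 ± 0.35). Of the 8 naive CD4+ T cell markers 3 rose and 5 fell. Both CD8 markers rose, with Cd8a and Cd8b1 summing to 37.9 to 42.4 TPM in IL-1b-treated, 41.2 to 50.1 TPM in cultured and 23.8 to 25.6 TPM in fresh libraries. Of the stromal and endothelial markers Pdgfrb and Lyve1 were at 0 in all libraries. Pecam1, the 1 marker of that list tested, averaged 145 TPM in IL-1b-treated, 180 TPM in cultured and 158 TPM in fresh cells and rose in cultured against fresh cells (0.44 ± 0.03, edgeR adjusted p 5.16e-11). The part of these cells in the values of Scd1, Scd2, Abca1 and the other genes was not tested.

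With IL-1b against culture alone the count-scale changes of the 35 genes were small, the 6 that rose (Idi1, Fdft1, Cyp51, Msmo1, Insig1 and Stard4) by 0.17 to 0.32 and the 6 that fell (Lss, Srebf1, Srebf2, Scap, Fasn and Npc1) by 0.25 to 0.39. On the log2(TPM + 0.5) scale none of the 35 was called higher and 12 were called lower, where 4764 of 13043 genes were called in either direction and the median over all genes tested shifted by -0.28. In TPM no gene of the 35 had all IL-1b-treated libraries above all cultured ones, and 20 had them all below, where 3.76% and 45% of all genes did. With a trend of GC content and length removed from the counts 5 rose and 1 fell, where 2420 of 13043 genes were called. Idi1, Lss, Msmo1, Srebf2, Scap, Insig1, Fasn and Npc1 were not called in that fit, and Lbr and Acly were called higher. Fdft1, Cyp51 and Stard4 were called higher and Srebf1 lower both in that fit and in the one on counts alone. In IL-1b-treated against fresh cells, 13 of the 19 cholesterol enzymes rose and 3 fell, where 32.9% and 32.6% of all genes did. Their median was 0.72 against -0.01 over all genes tested. On the log2(TPM + 0.5) scale 8 of the 19 were called higher and 6 lower, with a median of 0.16 against -0.50. On counts the regulators had 2 higher and 3 lower and the fatty acid genes 4 lower. The sterol handling genes had 1 higher and 2 lower, and the LXR-side genes 3 lower. Scd2 (-3.20 ± 0.10) and Abca1 (-2.98 ± 0.17) had the largest falls after Scd1 (-4.37 ± 0.42), whose direction was fixed beforehand by the filter on low counts. Lss fell there too (-0.21 ± 0.09, edgeR adjusted p 0.0441), a call lost without any one of 6 libraries, namely fresh replicates 2 and 3, cultured replicates 1 and 3 and IL-1b-treated replicates 1 and 3 (adjusted p up to 0.157). Nsdhl rose (0.40 ± 0.13, edgeR adjusted p 0.00899), a call lost without IL-1b-treated replicate 2 (adjusted p 0.0880), and both directions turned under other scalings, Lss to 0.07 with the trend removed and Nsdhl to -0.17 on the log2(TPM + 0.5) scale. In TPM 10 of the 35 lay above and 18 below without overlap, where 12.6% and 56.4% of all genes did.

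For cultured against fresh cells, 14 of the 35 lay above and 16 below without overlap in TPM, where 17.3% and 43.1% of all genes did.

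**Figure D5:**
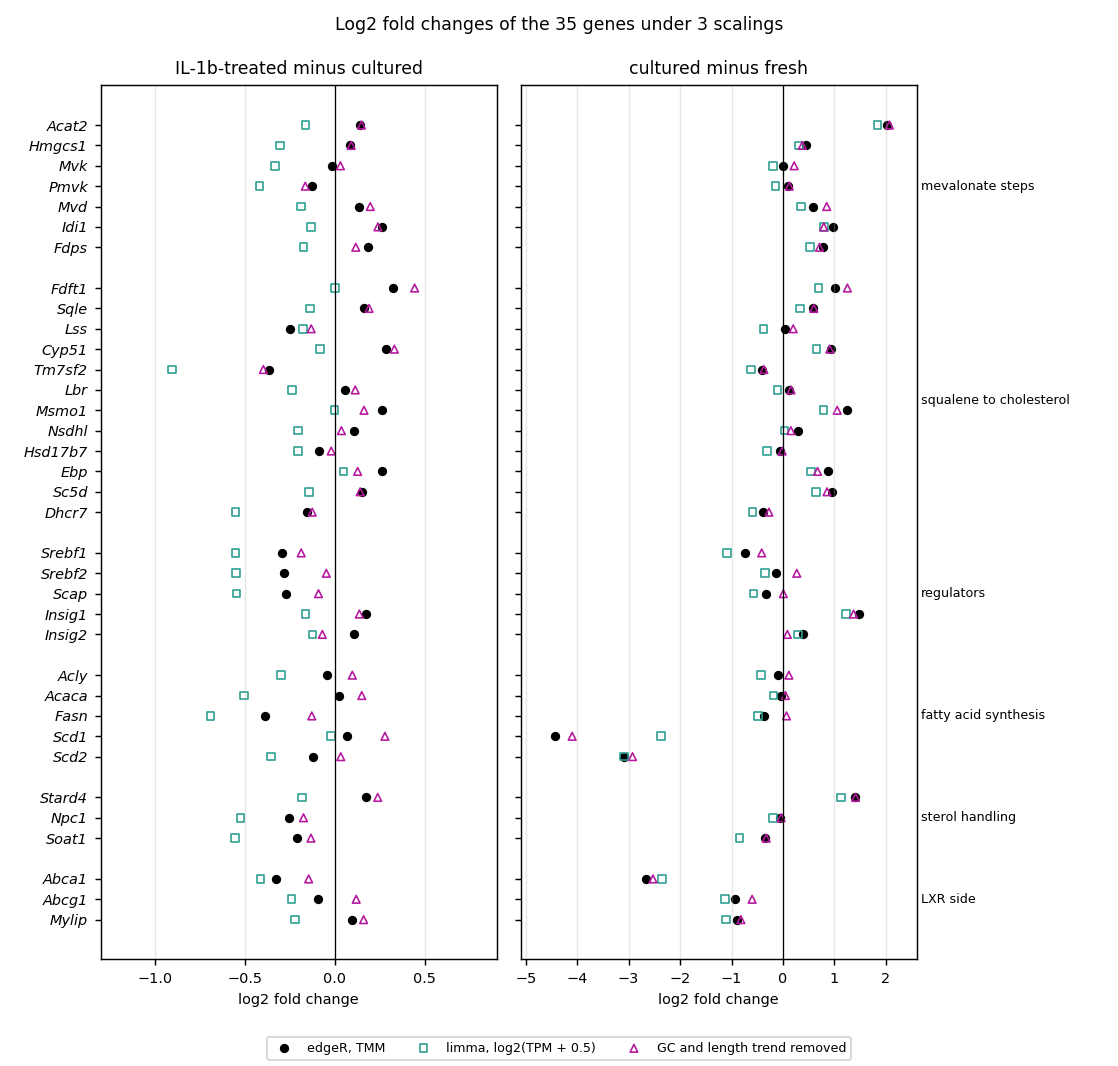
Log2 fold changes of the 35 genes by edgeR with TMM scaling, limma on log2(TPM + 0.5) and edgeR with a GC content and length trend removed, IL-1b-treated minus cultured at left and cultured minus fresh at right. At left the TPM scale lies mostly below 0, where its median over all genes was -0.28, while at right Acat2, Insig1, Stard4, Scd2 and Abca1 keep their direction under all 3.

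Other genes of these pathways, 74 chosen by name of which 65 were tested, moved in both directions. In cultured against fresh cells 20 rose and 19 fell, near the shares over all genes given above. Among 10 genes of SREBP processing and turnover, 3 rose, 3 fell and 4 did not pass the test. Of 10 genes of the isoprenoid branch, which attaches farnesyl and geranylgeranyl groups and makes ubiquinone, 2 rose and 4 fell. Of 18 tested genes of fatty acid elongation, desaturation and activation, 6 rose and 5 fell. Elovl5, an elongase of polyunsaturated fatty acids, was the most significant of them (0.97 ± 0.05, edgeR adjusted p 7.68e-14).

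Of 16 tested genes of sterol transport and LXR, 4 rose and 4 fell in cultured against fresh cells. Gramd1a, which moves cholesterol from the plasma membrane to the endoplasmic reticulum, averaged 155 TPM in IL-1b-treated, 217 TPM in cultured and 593 TPM in fresh cells. It fell in cultured against fresh cells (-1.17 ± 0.03, edgeR adjusted p 2.75e-19). Osbpl9, an oxysterol-binding protein family member, rose (1.10 ± 0.04), as did Npc2, the lysosomal partner of Npc1 (0.51 ± 0.03). Hadhb, of mitochondrial fatty acid oxidation, rose as well (0.79 ± 0.05). All of these kept their direction in IL-1b-treated against fresh cells, where 22 of the 65 rose and 20 fell.

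With IL-1b against culture alone 15 of the 65 other genes rose and 7 fell, where 15.6% and 13.3% of all genes tested did. Of these, 1 rose and 2 fell in SREBP processing and turnover, 2 rose in the isoprenoid branch, 3 rose and 1 fell in elongation, desaturation and activation, and 3 rose and 3 fell in sterol transport and LXR. Npc2 rose most clearly (0.31 ± 0.03, edgeR adjusted p 9.83e-09), followed by Osbpl9 (0.22 ± 0.03) and Hadhb (0.30 ± 0.05). Fnta, the shared subunit of the protein prenyltransferases, also rose (0.34 ± 0.06). On the log2(TPM + 0.5) scale the values of Npc2, Osbpl9 and Fnta turned to -0.04, -0.08 and -0.08, while Hadhb was at 0.04. Gramd1b, a relative of Gramd1a, fell (-0.36 ± 0.06, edgeR adjusted p 4.23e-05) and was at -0.92 on the log2(TPM + 0.5) scale. With the trend removed it was at -0.14 and not called (edgeR adjusted p 0.0807).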

How the data were processed

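Polyadenylated RNA of 9 libraries was sequenced after a directional NEBNext Ultra II preparation, per the labels' protocols. The submitters' processing notes name STAR, RSEM and mm10, without versions. The RSEM strand setting is not given in the sources used here, so reads of overlapping opposite-strand genes may not be separated. The deposited expected counts, per the file headers, are RSEM estimates that are not normalized. The deposited TPM values, per the file headers, are RSEM levels scaled by effective length to the same total in each library. Symbols were matched for 55141 of 55487 identifiers from GENCODE M21 on GRCm38, the same assembly as mm10.

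Expected counts were rounded and tested with edgeR 4.0.16 in R 4.3.3: filterByExpr, TMM scaling, 1 quasi-likelihood fit over 9 libraries with only the group as a term, Benjamini-Hochberg adjustment over 13043 genes, threshold 0.05. Pairs of replicates had a chi-square of 2.97 to 5.76 per gene, above counting error. Alternatives used DESeq2 1.42.0, limma 3.58.1 and mgcv 1.9.3.

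The genes and lists were chosen with earlier results of these data known. Values per library are given for genes called with an absolute log2 fold change of at least 1, for 2 genes per role with the smallest adjusted p in cultured against fresh cells and 1 per role with IL-1b against culture alone, and for all regulators and LXR-side genes. Of the other pathway genes the 5 with the smallest adjusted p per comparison are named. Isoform or protein comparisons were not analysed here. Floors cover counting error only.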

Additional observations from a re-analysis of the deposited data

How the results depend on the processing

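Counts of the 35 genes in cultured against fresh cells, 15 higher and 13 lower, stayed within 1.5 times under RLE, upper-quartile and library-size scaling, no filter, DESeq2, limma-voom and limma on TPM. Only 8 were lower with a GC content and length trend removed, and 7 with that trend and a replicate block. Leaving out 1 library gave 14 to 16 higher and 11 to 13 lower. Counts of the 65 other genes were 18 to 20 higher and 18 to 20 lower when a library was left out, and limma on log2 of TPM plus 0.5, 1 or 0.1 gave 11 higher, and 29 lower with a pseudocount of 1. With an added threshold of an absolute log2 fold change of 1, 5 of the 35 were higher and 3 lower.

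With IL-1b against culture alone, 6 of the 35 were higher and 6 lower. Library size alone gave 1 higher and 10 lower, and 7 higher and 17 lower of the other genes. Limma on TPM gave 0 higher and 12 lower with pseudocounts of 0.5 and 0.1 and 0 higher and 11 lower with 1, and of the other genes 0 higher and 24, 23 and 24 lower with pseudocounts of 0.5, 0.1 and 1. The trend-removed fit gave 1 lower, and 2 with the replicate block, with 0 of the other genes lower in both. A log2 threshold of 1 left 0 higher and 0 lower. Leaving out 1 library gave 2 to 7 higher, the fewest without cultured replicate 1, and 5 to 7 lower, and 10 to 15 higher and 7 to 8 lower of the other genes.

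In IL-1b-treated against fresh cells limma on TPM gave 10 higher of the 35 under all 3 pseudocounts, and 10 higher and 43 lower of the other genes. A log2 threshold of 1 gave 9 higher and 5 lower. Leaving out 1 library gave 15 to 16 higher and 14 to 15 lower of the 35, and 21 to 24 higher and 18 to 20 lower of the other genes.

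Directions turned for these genes, with pseudocounts of 0.5, 1 and 0.1 in that order. In cultured against fresh cells Lbr was -0.1048, -0.1045 and -0.1051. With IL-1b against culture alone Hmgcs1 was -0.3054, -0.3007 and -0.3093, Idi1 -0.1303, -0.1278 and -0.1324, Cyp51 -0.08296, -0.08164 and -0.08404, and Lbr -0.2355, -0.2347 and -0.2362. In the same comparison Msmo1 was -0.0009096, -0.0006991 and -0.001085, Insig1 -0.1628, -0.1612 and -0.164, and Stard4 -0.1801, -0.1782 and -0.1817. In IL-1b-treated against fresh cells Lbr was -0.3403, -0.3391 and -0.3413, Nsdhl -0.1728, -0.1642 and -0.1804, and Hmgcs1 -1.623e-05 with 0.5 and -8.376e-05 with 0.1.

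With the trend removed, without and then with a replicate block, cultured against fresh values turned to 0.2684 and 0.2689 for Srebf2, 0.006903 and 0.009449 for Scap, 0.1153 and 0.1154 for Acly and 0.06882 and 0.06872 for Fasn. With IL-1b against culture alone Acly turned to 0.09768 without the block. In IL-1b-treated against fresh cells they turned to 0.06819 and 0.06748 for Lss, 0.2218 and 0.2219 for Srebf2, 0.213 and 0.213 for Acly and 0.1975 and 0.1972 for Acaca. The cause of these turns was not tested.

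Same-numbered libraries did not deviate together, with correlations of -0.022 to 0.019 between groups, so the numbers are not taken as pairs. The replicate block alone gave 15 higher and 13 lower in cultured against fresh cells and 7 higher and 6 lower with IL-1b against culture alone, where Ebp was added. IL-1b-treated against fresh cells had 16 higher and 15 lower with it.

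Scd1 was limited by depth in both cultured groups, at 15 counts each over 3 libraries.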

Other observations

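Genes of fatty acid oxidation, 13 by name of which 11 were tested, were not part of the 35 genes and are named here after their values were seen. With IL-1b against culture alone 6 of the 11 rose on the count scale and 1 fell, where 15.6% and 13.3% of all genes tested did, and their median log2 fold change was 0.25 against -0.01 over all genes tested. Those that rose were Slc25a20, the carnitine carrier of the mitochondrial membrane (0.42 ± 0.10, edgeR adjusted p 0.00163), Cpt1a, the carnitine transferase that commits fatty acids to oxidation (0.26 ± 0.06, edgeR adjusted p 0.00113), and Acadm, Acadvl, Hadha and Hadhb, which carry out the oxidation cycle. Ppard, a nuclear receptor for fatty acids, fell (-0.34 ± 0.10, edgeR adjusted p 0.0106). On the log2(TPM + 0.5) scale none of the 11 was called higher and 2 were called lower, with Slc25a20 at 0.11 and Cpt1a at -0.03. With the GC content and length trend removed 5 were called higher and none lower.

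Also outside the 35, 2 genes of fatty acid elongation and synthesis moved by more than a log2 fold change of 1 in cultured against fresh cells. Elovl6, an elongase of saturated fatty acids, averaged 9.2 TPM in IL-1b-treated, 13.4 TPM in cultured and 7.17 TPM in fresh cells. It rose in cultured against fresh cells (1.15 ± 0.08, edgeR adjusted p 1.64e-11) and fell with IL-1b against culture alone (-0.30 ± 0.08, edgeR adjusted p 0.00385). With the trend removed the change with IL-1b was -0.17 and not called (edgeR adjusted p 0.117). Acacb, the mitochondrial counterpart of Acaca, averaged 0.0333 TPM in IL-1b-treated, 0.223 TPM in cultured and 1.12 TPM in fresh cells. It was lower in cultured than in fresh cells (-3.97 ± 0.59). Over 3 libraries each, Acacb had 9 counts with IL-1b, 11 in culture without it and 195 in fresh cells, and its SD in cultured cells was 0.335 TPM. It could thus pass the filter on low counts only through its fresh libraries, so its direction was fixed beforehand and its fall is no test.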
